A study of Homo sapiens with 40 samples.

Results

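The MHC class II genes on these arrays were taken as every probe whose single gene symbol began with HLA-DM, HLA-DO, HLA-DP, HLA-DQ or HLA-DR. The rule gave 38 probes of 8 genes, out of 15246 probes and 4604 genes in the series. HLA-DRA had 5 probes, HLA-DRB1 7, HLA-DQA1 6, HLA-DQB1 4, HLA-DPA1 4, HLA-DPB1 4, HLA-DMB 7 and HLA-DOB 1. Of these genes, 7 had a value on all 40 arrays, and HLA-DOB, with its single probe, had one on 29.

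The series used 2-colour arrays, with RNA of treated cells in the Cy5 channel and of their control in the Cy3 channel. OCI-Ly3 and OCI-Ly10, the 2 human lines studied, were established from diffuse large B cell lymphomas of the activated B cell-like type. OCI-Ly3 cells were given IL-10 at 50 ng/ml for 1, 3, 6 or 24 h (2 arrays each) or for 48 or 96 h (1 array each), against untreated OCI-Ly3 cells. OCI-Ly10 cells were given IL-6 at 50 ng/ml for 0.5 to 24 h (8 arrays), JAK inhibitor I at 5 uM for 3 or 6 h (4 arrays), or a STAT3 siRNA SMARTpool at 4 uM for 8, 24 or 48 h (5 arrays). IL-6 and JAK inhibitor I were set against untreated OCI-Ly10 cells, and the siRNA against cells electroporated without siRNA. Derivatives of both lines, called iIkBsr, carried an inducible IkB super-repressor, a form of the NF-kB inhibitor that resists degradation. It was switched on with doxycycline at 20 ng/ml for 1 to 6 h in OCI-Ly3 (9 arrays) or 1.5 to 24 h in OCI-Ly10 (4 arrays), against the same derivative without doxycycline. Neither a scrambled siRNA nor doxycycline given to the parental lines was among the arrays analysed here, so effects of siRNA or of doxycycline as such cannot be told apart from those of the intended target. The labels do not say that replicate arrays came from separate cultures, so p-values measure the spread between arrays, which may be technical.

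Each value below is a log ratio of treated over control RNA, read as log2, after each array was centred on its median. The base is not stated in the sources used here. The deposited values ran from -7.868 to 5.81, a span too wide for base 10, and the natural base cannot be told apart from base 2, so folds hold only under base 2. Between 8862 and 14947 probes had a value on an array, and 10.7% of the class II cells of the table were blank. There was no dye swap, so a dye bias of a gene stays in its ratio and is removed only from differences between windows or experiments. A ratio shows a difference between treated and control cells and no level, so neither the amount of class II RNA nor the B cell identity of the lines could be read from marker genes. In bulk RNA, fewer cells of a type and less RNA per cell cannot be told apart. STAT3, the target of the siRNA, was at -1.99 at 8 h, at -1.46 and -2.26 at 24 h and at -1.74 and -0.89 at 48 h.

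MHC class II molecules present peptides from the endosomal pathway to CD4+ T cells, and B cells express them constitutively. HLA-DR, HLA-DQ and HLA-DP are heterodimers of an alpha and a beta chain, while HLA-DM and HLA-DO are related heterodimers that stay inside the cell. HLA-DM exchanges the invariant chain fragment for peptide, and HLA-DO, made mostly in B cells, restrains HLA-DM. Transcription of the whole family depends on the coactivator CIITA, which is recruited to conserved promoter boxes through the RFX complex on the X box and NF-Y on the Y box. Loss of class II expression is a known feature of some diffuse large B cell lymphomas, and IL-10 is known to raise class II on resting B cells of the mouse.

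Promoter stretches are shown because these boxes are where the common regulators of the family are known to bind. Whether the boxes bear on the ratios under IL-10 was not tested. RefSeq promoter records, from 250 bases before to 50 after an annotated start (GRCh38.p14), were found for 7 of the 8 genes. They are reference sequence and not the alleles of these lines. Each was searched on both strands for CCAAT, the core of the Y box, and for AGNNACNGA, an X box core whose letters were chosen after these promoters had been read. The matches are in capitals, and ATTGG is CCAAT on the opposite strand.
HLA-DRB1 (chr6:32589878-32589939, minus strand): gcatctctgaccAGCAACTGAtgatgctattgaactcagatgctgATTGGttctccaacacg
HLA-DQA1 (chr6:32637292-32637354, plus strand): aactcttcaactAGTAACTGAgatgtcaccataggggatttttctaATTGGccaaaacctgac
HLA-DQB1 (chr6:32666729-32666790, minus strand): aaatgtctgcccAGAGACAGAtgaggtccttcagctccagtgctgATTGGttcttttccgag
HLA-DMB (chr6:32941096-32941128, minus strand): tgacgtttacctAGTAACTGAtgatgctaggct
HLA-DPA1 (chr6:33073728-33073760, minus strand): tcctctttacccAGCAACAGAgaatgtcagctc
HLA-DPB1 (chr6:33075879-33075931, plus strand): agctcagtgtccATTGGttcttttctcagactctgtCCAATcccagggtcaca
HLA-DOB (chr6:32817060-32817112, minus strand): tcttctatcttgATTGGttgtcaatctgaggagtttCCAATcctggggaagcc

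The X box letters were present in the records of 5 genes. In the stretches shown they began at position -79 from the annotated start in HLA-DRB1, at -102 in HLA-DQA1, at -121 in HLA-DQB1, at -88 in HLA-DMB and at -99 in HLA-DPA1, there in 1 of its records. In HLA-DRB1 and HLA-DQB1 an ATTGG began 33 bases after the start of the X box letters, and in HLA-DQA1 34 bases after it. HLA-DPB1 and HLA-DOB held CCAAT on both strands and not these X box letters. Other matches of either motif outside the stretches are not shown, among them a CCAAT at -22 in HLA-DMB. Of all 35116 promoter records, 34.6% held CCAAT on either strand and 15.3% held the X box letters. Both, on these strands and 33 or 34 bases apart, were held by 0.0399% (14 records, of 3 members among others). The strands and the spacing were those seen in these 3 members, so their own match was fixed in advance. These matches describe the sequence only.

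Of the 6 experiments, IL-10 in OCI-Ly3 had the class II ratios furthest from control, and they were above control from 24 h on. Over the window of 24, 48 and 96 h (4 arrays), 7 of the 8 class II genes rose, and HLA-DQB1 and HLA-DQA1 were the furthest above control. The mean log2 ratio of the window was tested against 0 with limma, with Benjamini-Hochberg adjustment over all genes tested and a threshold of 0.05. The spread behind each SE and p-value was estimated from time points with 2 arrays, across experiments. The single 48 and 96 h arrays add nothing to that estimate and are assumed to vary alike. The SEs of this window therefore do not measure the spread of its 4 arrays. Of 4442 genes tested, 14.1% were called higher. The median of the class II genes was 1.15, against -0.02 for all genes tested. The plot of class II genes by hour of IL-10 shows each array.

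**Figure D1:**
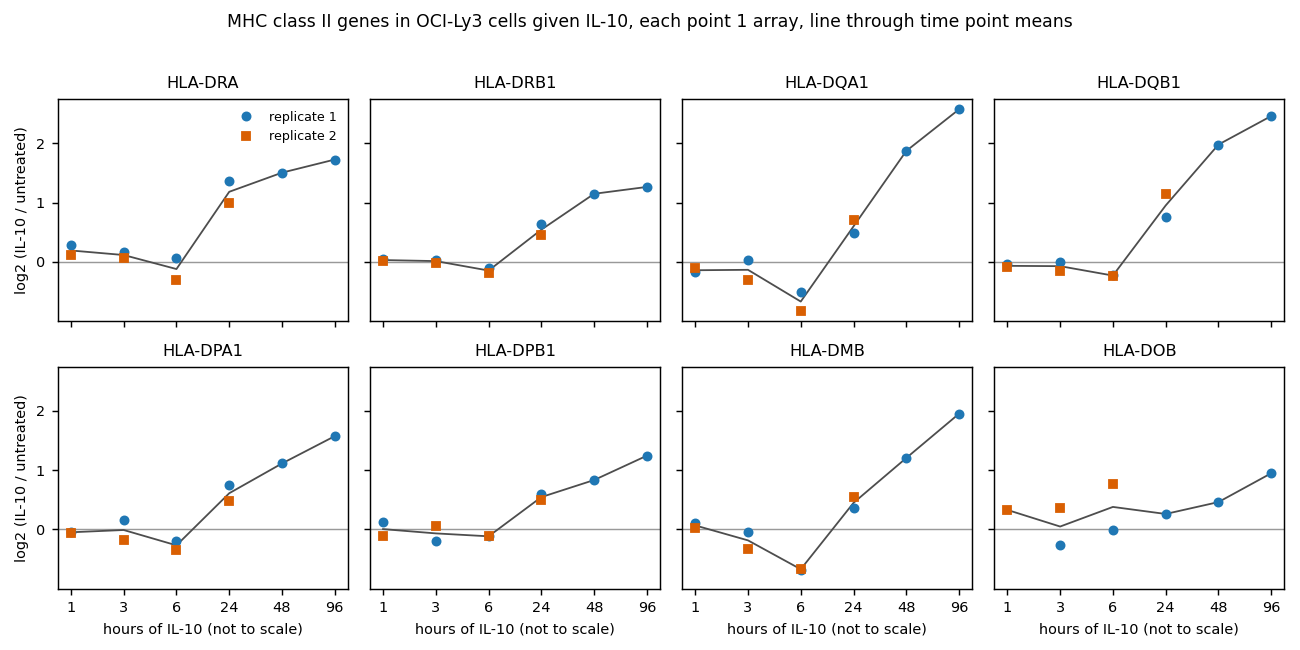
Log2 ratio of IL-10 over untreated OCI-Ly3 cells (y axis) by hours of IL-10 (x axis, not to scale) for the 8 class II genes. Each point is 1 array and the line joins time point means; all 8 genes lie above 0 on every array with a value from 24 h on, and HLA-DQA1 and HLA-DQB1 reach 2.57 and 2.45 at 96 h.

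HLA-DRA encodes the alpha chain shared by all DR molecules. It was at log2 ratios of 1.37 and 0.99 at 24 h, at 1.50 at 48 h and at 1.72 at 96 h, which is 3.30-fold over untreated cells. Its window mean was 1.47 ± 0.08 (SE, 4 arrays, limma adjusted p = 1.48e-10). At 24 h HLA-DRA had the highest mean of the members, at 1.18. HLA-DRB1, the most common DR beta chain, was at 0.63 and 0.46 at 24 h, at 1.15 at 48 h and at 1.26 at 96 h. Its mean of 0.98 ± 0.09 passed at limma adjusted p = 1.18e-07. Probes of HLA-DRB1 may also bind RNA of other DRB genes, which are near-identical copies.

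The DQ pair reached the highest ratios. HLA-DQA1, the alpha chain, was at 0.49 and 0.71 at 24 h, at 1.87 at 48 h and at 2.57 at 96 h, or 5.93-fold. HLA-DQB1, the beta chain, was at 0.75 and 1.15 at 24 h, at 1.97 at 48 h and at 2.45 at 96 h, or 5.48-fold. The window means were 1.68 ± 0.08 for HLA-DQA1 (limma adjusted p = 6.55e-12) and 1.79 ± 0.07 for HLA-DQB1 (limma adjusted p = 1.73e-12). HLA-DQB1 ranked 13 from the top and HLA-DQA1 16 among the 4442 genes tested.

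The DP chains were lower in the same order of time. HLA-DPA1 was at 0.75 and 0.47 at 24 h, at 1.11 at 48 h and at 1.57 at 96 h. HLA-DPB1 was at 0.59 and 0.50 at 24 h, at 0.83 at 48 h and at 1.24 at 96 h. Both passed the test, HLA-DPA1 with a mean of 1.10 ± 0.07 (limma adjusted p = 9.47e-10) and HLA-DPB1 with 0.87 ± 0.07 (limma adjusted p = 1.11e-08).

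Among the genes of the loading step, HLA-DMB, the beta chain of the peptide exchanger, was at 0.36 and 0.54 at 24 h, at 1.20 at 48 h and at 1.95 at 96 h. Its mean was 1.20 ± 0.07 (limma adjusted p = 1.44e-10). HLA-DOB, the beta chain of the HLA-DM inhibitor, was at 0.26 on the 1 array with a value at 24 h, at 0.46 at 48 h and at 0.95 at 96 h. Its mean of 0.56 ± 0.19 over 3 arrays missed the threshold (limma adjusted p = 0.0519). With the replicate number as a block, HLA-DOB was called at 0.67 (limma adjusted p = 0.00246), but it had no replicate 2 value at 24 h. That fit shifted its mean by the replicate differences at 3 and 6 h alone, so the larger value was not measured in the later window. The partner genes HLA-DMA and HLA-DOA, and other DR, DQ and DP genes, were not among the members.

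Ordered by window mean, the genes ran HLA-DQB1, HLA-DQA1, HLA-DRA, HLA-DMB, HLA-DPA1, HLA-DRB1, HLA-DPB1 and HLA-DOB. The intervals of ± 1 SE overlapped between HLA-DQB1 and HLA-DQA1, and between each neighbouring pair from HLA-DMB through HLA-DPB1. Differences between genes were not tested. For all 7 called genes the 48 h array lay above both 24 h arrays and the 96 h array above the 48 h array, but 48 and 96 h rest on 1 array each and share a run of array identifiers that holds no other time. With the 24 h arrays alone, a window chosen after seeing the data, 7 of 7 tested class II genes were called higher (5.46% of all genes), and their means ran from 0.45 for HLA-DMB to 1.18 for HLA-DRA. Without the 48 and 96 h arrays the mean of HLA-DQA1 was therefore 0.60 in place of 1.68.

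Single probes differed widely in size, and 1 HLA-DPB1 probe lay below 0. Fitted probe by probe, 32 of 37 class II probes were called higher at 24 to 96 h, where 14.4% of all 13537 probes were. The 5 HLA-DRA probes lay close together, between 1.32 and 1.59, as did the 4 HLA-DQB1 probes, between 1.53 and 2.01. HLA-DPB1 split, with 2 probes at 1.21 and 2.16, both called, and 2 at -0.12 and 0.18. In HLA-DQA1, 1 probe was at 0.19 and 5 lay between 1.34 and 2.18. HLA-DRB1 ran from 0.32 to 1.60, with 6 of 7 probes called. A gene mean that holds such flat probes is lower than that of the other probes, so the order of genes depends partly on probes. The probe plot shows the spread.

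**Figure D2:**
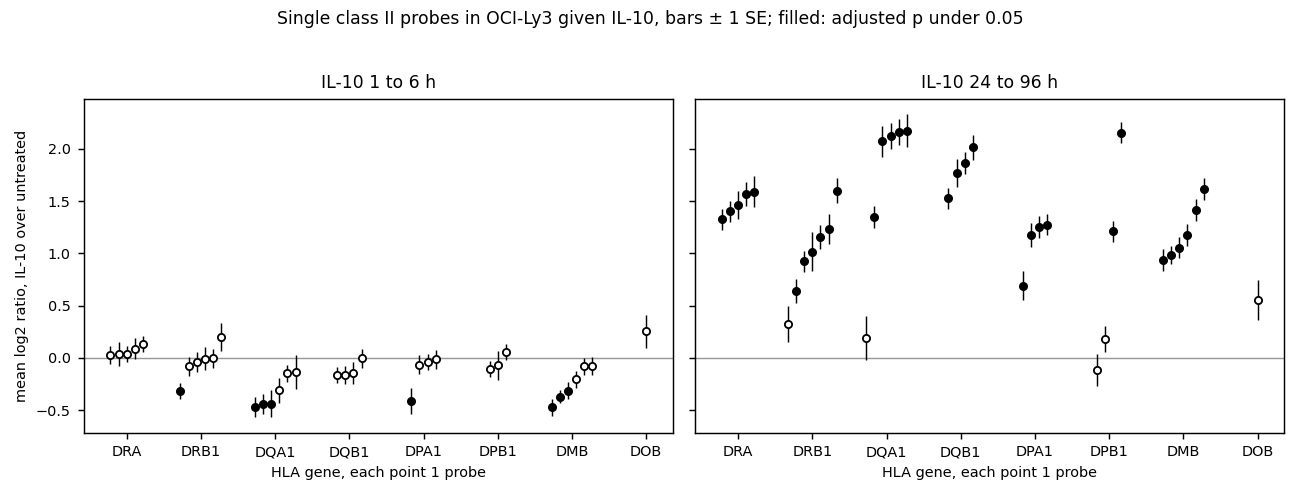
Mean log2 ratio of each class II probe under IL-10 in OCI-Ly3 (y axis), by HLA gene (x axis), over 1 to 6 h and over 24 to 96 h. Bars are ± 1 SE and filled points have adjusted p under 0.05; in the later window HLA-DPB1 has probes at 1.21 and 2.16 and others at -0.12 and 0.18.

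Before the rise, HLA-DQA1 and HLA-DMB fell. HLA-DQA1 was at -0.17 and -0.11 at 1 h, at 0.03 and -0.30 at 3 h and at -0.51 and -0.82 at 6 h. HLA-DMB was at 0.10 and 0.03 at 1 h, at -0.04 and -0.33 at 3 h and at -0.68 and -0.66 at 6 h. In both genes the 6 h arrays were the lowest of the 6. The mean over 1, 3 and 6 h (6 arrays) was -0.31 ± 0.06 for HLA-DQA1 (limma adjusted p = 0.00161, below 0 on 5 of 6 arrays) and -0.26 ± 0.05 for HLA-DMB (limma adjusted p = 0.00265, below 0 on 4 of 6). These were 2 of 8 members, where 8.4% of 4428 genes were called lower, and the median of the members was -0.08 against -0.02 for all genes. The other genes did not pass and lay between -0.12 for HLA-DQB1 and 0.25 for HLA-DOB. Tested at 6 h alone, a window chosen after seeing the data, HLA-DQA1 and HLA-DMB were both at -0.67 (limma adjusted p = 0.000333 and 7.7e-05), and 3.71% of genes were called lower. Probe by probe, 8 of 35 class II probes were called lower over 1 to 6 h, against 6.67% of all probes, and 3 each belonged to HLA-DQA1 and HLA-DMB. Both calls rested on the shared spread estimate: with only the IL-10 arrays in the fit, 0 of 8 members were called (limma adjusted p = 0.0654 for HLA-DQA1 and 0.0713 for HLA-DMB) and 220 genes were called in all. With the replicate block the same number of members was called, 2, and 975 genes in either direction, against 643 without it.

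The step between the windows was tested directly, as the later mean minus the earlier one, in which a constant dye bias cancels. It was positive for 7 of 8 class II genes past the threshold, against 7.96% of genes called higher, with a median of 1.30 for the members and 0.01 for all genes. The differences were 1.99 ± 0.10 for HLA-DQA1, 1.91 ± 0.09 for HLA-DQB1, 1.46 ± 0.09 for HLA-DMB, 1.40 ± 0.11 for HLA-DRA, 1.20 ± 0.09 for HLA-DPA1, 1.02 ± 0.12 for HLA-DRB1 and 0.93 ± 0.09 for HLA-DPB1. HLA-DOB was at 0.30 ± 0.25 (limma adjusted p = 0.523), and at 0.54 (limma adjusted p = 0.0433) with the replicate block. The blocked value again rests on its replicate differences at 3 and 6 h, since HLA-DOB had 1 array each at 1 and 24 h. By the order of identifiers, the IL-10 arrays fell into 3 runs of consecutive identifiers, with each replicate's 1, 3, 6 and 24 h arrays in 1 run. Within the run of replicate 1, the 24 h value minus the mean of 1, 3 and 6 h lay between 0.56 (HLA-DMB) and 1.20 (HLA-DRA) for the 7 genes, and within that of replicate 2 between 0.52 (HLA-DRB1) and 1.30 (HLA-DQB1).

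Set against the average of the other 5 experiments, the later IL-10 window was higher for 7 of 7 tested class II genes, where 13.2% of 3520 genes were called higher. HLA-DQB1 differed by 1.75 ± 0.08 (limma adjusted p = 6.68e-12), HLA-DQA1 by 1.71 ± 0.08 and HLA-DRA by 1.33 ± 0.09. The smallest difference was 0.87 ± 0.07 for HLA-DPB1 (limma adjusted p = 3.44e-08). Those experiments differ from IL-10 in cell line or treatment and mostly in time: of their 30 arrays, 6 were taken at 24 h or later.

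The mean of the class II genes on each array shows the same separation. It was 0.65 and 0.69 on the 24 h arrays of IL-10, 1.26 at 48 h and 1.71 at 96 h, the 4 highest of the 40 arrays, and -0.22 and -0.24 on the 6 h arrays, the lowest of the 40. On the 30 arrays of the other experiments it ran from -0.14 (siRNA, 48 h) to 0.21 (super-repressor in OCI-Ly10, 24 h).

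**Figure D3:**
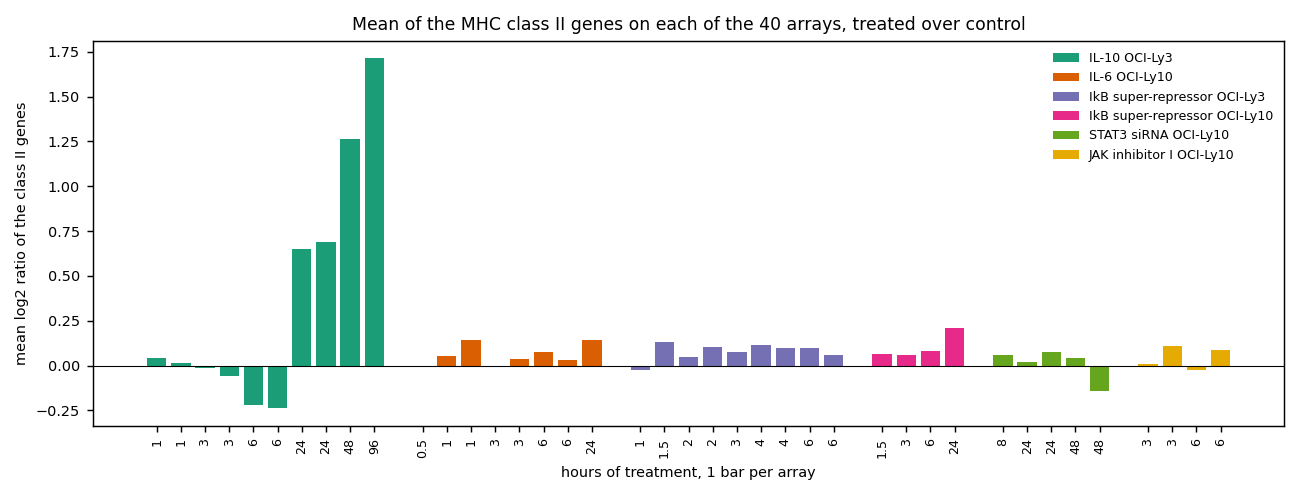
Mean log2 ratio of the class II genes (y axis) on each of the 40 arrays, 1 bar per array, grouped by experiment and ordered by hours of treatment (x axis). The 4 IL-10 arrays from 24 to 96 h stand between 0.65 and 1.71, and the other 36 lie between -0.24 and 0.21.

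IL-6, another cytokine that signals through STAT3, was given to OCI-Ly10 cells, and no class II gene passed over 1 to 24 h (0 of 7 tested, 7 arrays). In that window 4.54% of 3301 genes were called by limma in either direction, and 704 had unadjusted p under 0.05. The window means lay between -0.06 ± 0.05 for HLA-DMB and 0.14 ± 0.07 for HLA-DRB1. HLA-DRA was between -0.10 and 0.16 on these 7 arrays, with a median of 0.12, and above 0 on 6 of them. HLA-DQB1, the gene furthest from control under IL-10, had a mean of 0.11 ± 0.06 (limma adjusted p = 0.256). HLA-DRB1 ran from -0.32 to 0.33 with a median of 0.24, and those extremes were the 2 replicates at 1 h. Partly different HLA-DRB1 probes had values on those 2 arrays. Probe by probe, 1 of 22 class II probes was called higher, of HLA-DRB1, against 1.78% of all probes. The replicate block moved the count of all called genes to 314, against 150 without it, with 0 class II genes called in either fit.

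At 24 h the cytokines can be set side by side, but the cell lines differ too, and the single IL-6 array is assumed to vary like the other groups, from which its spread was taken. HLA-DRA was at 1.37 and 0.99 with IL-10 and at 0.12 with IL-6, a difference of 1.06 ± 0.20 (limma adjusted p = 0.00331). HLA-DQB1 was at 0.75 and 1.15 with IL-10 and at 0.05 with IL-6, a difference of 0.90 ± 0.17 (limma adjusted p = 0.0039). HLA-DPA1 was at 0.75 and 0.47 with IL-10 and at -0.09 with IL-6, a difference of 0.70 ± 0.17 (limma adjusted p = 0.0215). These 3 of 7 genes passed, where 1.92% of 3855 genes were called higher. The other genes differed by 0.24 (HLA-DPB1) to 0.55 (HLA-DMB) and did not pass. With the replicate block 223 genes were called in either direction, against 144 without it, and the class II count was 3 in both. HLA-DPA1 lost its call without replicate 1 of the 24 h IL-10 arrays (0.56, limma adjusted p = 0.146). HLA-DPB1 gained one, at 0.77 (limma adjusted p = 0.023), when probes with values on fewer than 36 arrays were dropped, a filter chosen after seeing the data.

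With the IkB super-repressor switched on in OCI-Ly3, HLA-DRA and HLA-DMB lay slightly above control. HLA-DRA was at 0.16 and 0.54 at 2 h, at 0.36 at 3 h, at 0.34 and 0.49 at 4 h and at 0.49 and 0.34 at 6 h, above 0 on 7 of 7 arrays. Its mean of 0.39 ± 0.06 passed at limma adjusted p = 0.000887. HLA-DMB lay between 0.10 and 0.26 with a median of 0.20, also above 0 on all 7, with a mean of 0.18 ± 0.05 (limma adjusted p = 0.0299). These were 2 of 8 members, where 9.16% of 4390 genes were called higher. Both were tested against 0, so a dye bias would stay in them. In OCI-Ly10, HLA-DMB was at 0.29 with the super-repressor, 0.28 with siRNA, 0.24 with JAK inhibitor I and -0.06 with IL-6. HLA-DRA lay between 0.03 and 0.11 in those experiments. In OCI-Ly3, HLA-DPA1 was at 0.14 ± 0.05 and above 0 on 7 of 7 arrays, but missed the threshold (limma adjusted p = 0.0915). The remaining genes lay between -0.10 for HLA-DOB and 0.07 for HLA-DQB1. Among them, HLA-DPB1 was at 0.06, and at 0.30 (limma adjusted p = 0.00238) when probes with values on fewer than 36 arrays were dropped. The call of HLA-DMB was lost with the run of arrays as a random block (limma adjusted p = 0.167) and on leaving out any of 5 single arrays: the 2 h array of replicate 2, either 4 h array or either 6 h array (means 0.17 to 0.18, limma adjusted p from 0.053 to 0.0907).

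In OCI-Ly10 the super-repressor gave no called class II gene over 3, 6 and 24 h (0 of 8, with 1 array at each time). Of 4514 genes, 0.532% were called by limma in either direction, and 293 had unadjusted p under 0.05. HLA-DMB was at 0.12 at 3 h, at 0.24 at 6 h and at 0.52 at 24 h, with a mean of 0.29 ± 0.08 (limma adjusted p = 0.128). HLA-DPA1 was at 0.20, 0.17 and 0.37 at these times, with a mean of 0.25 ± 0.08 (limma adjusted p = 0.331). Every one of the 8 genes was above 0 at both 6 and 24 h. Probe by probe, 1 of 37 class II probes was called higher, of HLA-DMB, against 0.35% of all probes. HLA-DRA, called in OCI-Ly3, was here at 0.05, 0.13 and 0.15. With arrays scaled to equal spread HLA-DMB and HLA-DPA1 were called, at 0.42 and 0.36 (limma adjusted p = 0.00333 and 0.0173).

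Whether the lines differed was tested at the shared times of 1.5, 3 and 6 h. No class II gene passed, nor did any of the 4384 genes (0% called by limma, 108 with unadjusted p under 0.05). The difference, OCI-Ly3 minus OCI-Ly10, was 0.30 ± 0.13 for HLA-DRA (limma adjusted p = 0.994) and 0.03 ± 0.10 for HLA-DMB. A difference between the lines in HLA-DRA was therefore not shown.

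STAT3 siRNA in OCI-Ly10 left most class II genes near control. HLA-DMB was at 0.26 and 0.14 at 24 h and at 0.40 and 0.32 at 48 h, above 0 on 4 of 4 arrays, with a mean of 0.28 ± 0.07 (limma adjusted p = 0.0256). It was the 1 gene called of 7 tested, where 1.27% of 4346 genes were called higher. Its call was lost on leaving out any 1 of the 4 arrays (0.25 to 0.31, limma adjusted p from 0.0526 to 0.207), and with the run as a block (limma adjusted p = 0.075). HLA-DQA1 was at -0.0852 and -0.0050 at 24 h and at -0.30 and -0.46 at 48 h, with a mean of -0.21 ± 0.07 that missed the threshold (limma adjusted p = 0.117). The other 5 genes had means between -0.09 for HLA-DPB1 and 0.10 for HLA-DPA1. HLA-DOB, with values at 48 h of 0.37 and -0.43 and none at 24 h, was not tested.

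JAK inhibitor I, a compound that blocks the JAK kinases upstream of STAT3, gave no called class II gene at 3 and 6 h (0 of 8, 4 arrays), where 3.26% of 4480 genes were called by limma in either direction and 726 had unadjusted p under 0.05. HLA-DMB was closest, at 0.06 and 0.26 at 3 h and at 0.37 and 0.27 at 6 h, above 0 on 4 of 4 arrays. Its mean of 0.24 ± 0.07 had limma adjusted p = 0.0503, and it was called under 4 alternatives, among them arrays scaled to equal spread (limma adjusted p = 0.0342). The other genes had means between -0.08 for HLA-DPA1, below 0 on 4 of 4 arrays, and 0.19 for HLA-DOB. The longest inhibitor treatment was 6 h, a time at which IL-10 itself had not raised the class II genes in OCI-Ly3. The plot of window means gives all genes and experiments together.

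**Figure D4:**
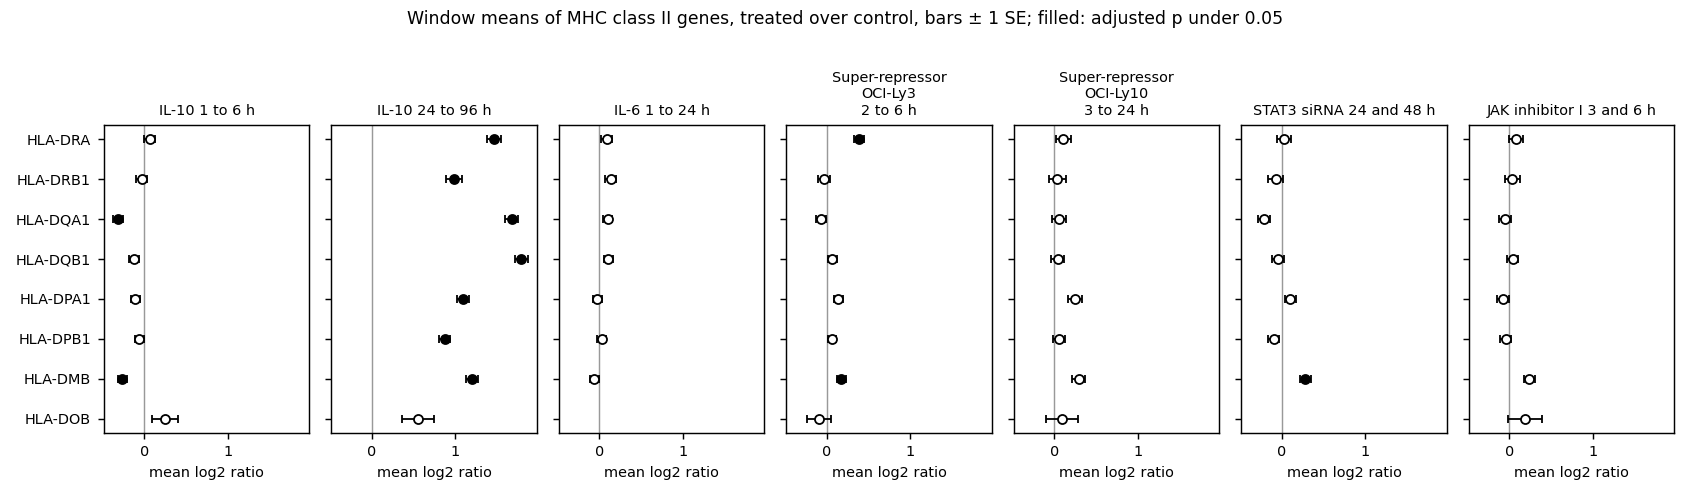
Mean log2 ratio of treated over control (x axis) of each class II gene (rows) in the 7 windows tested, bars ± 1 SE, filled where adjusted p was under 0.05. Means of 24 to 96 h of IL-10 lie between 0.56 and 1.79, and those of every other window between -0.31 and 0.39.

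Of the regulators of class II transcription, CIITA, RFX5 and RFXANK rose at 24 to 96 h of IL-10, by less than most class II genes. CIITA, the coactivator of the family, was at -0.20 and 0.12 at 1 h, at -0.17 and 0.13 at 3 h and at -0.15 and 0.40 at 6 h. It then stood at 0.31 and 0.77 at 24 h, at 0.79 at 48 h and at 1.04 at 96 h. The later mean of CIITA was 0.79 ± 0.10 (limma adjusted p = 6.27e-06, 11 probes), and its later minus earlier difference was 0.77 ± 0.13 (limma adjusted p = 0.000289). RFX5 and RFXANK, subunits of the RFX complex, rose by 0.61 ± 0.10 and 0.57 ± 0.12 (limma adjusted p = 8.63e-05 and 0.00195). RFX5 had 2 probes and RFXANK only 1. RFXAP, the other subunit, was at -0.18 ± 0.11 (limma adjusted p = 0.24), and the NF-Y genes NFYA and NFYC were at -0.17 and -0.14. Thus 3 of 6 measured genes of class II transcription were called higher and 0 lower, with a list median of 0.21 against -0.02 for all genes. Of all genes tested, 14.1% were called higher and 13.7% lower. With the 24 h arrays alone CIITA was called (0.54, limma adjusted p = 0.0124), while RFX5 and RFXANK were at 0.40 and 0.30 and missed the threshold (limma adjusted p = 0.055 and 0.33).

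**Figure D5:**
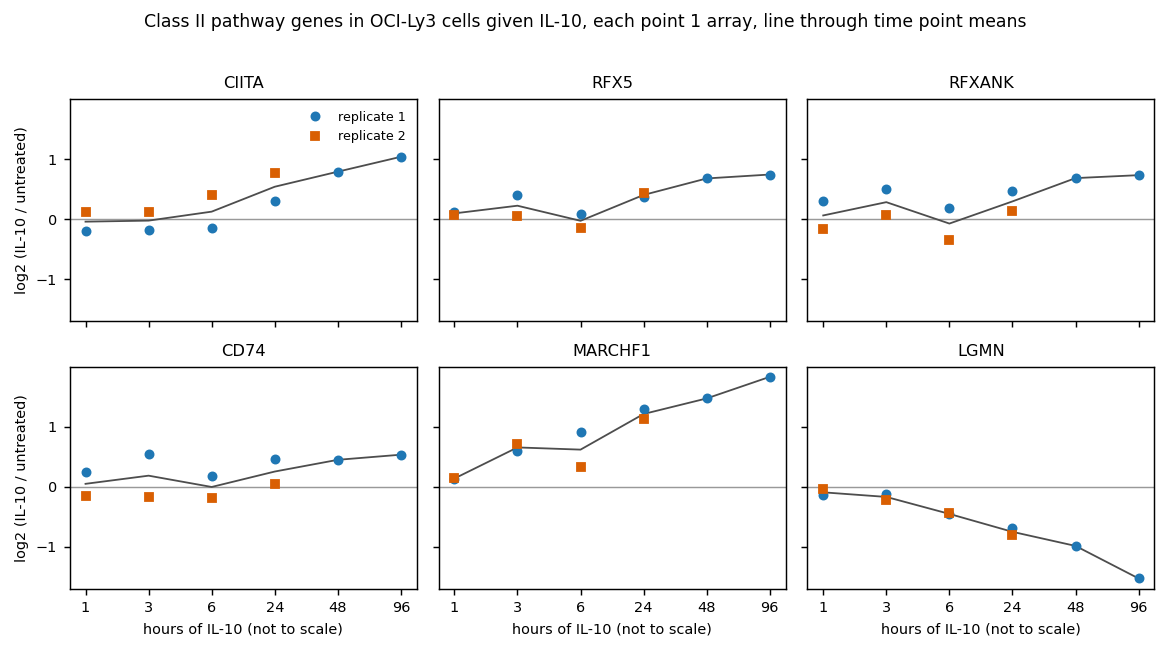
Log2 ratio of IL-10 over untreated OCI-Ly3 cells (y axis) by hours of IL-10 (x axis, not to scale) for 6 genes of class II transcription, processing and turnover, each point 1 array, lines through time point means. CIITA reaches 1.04 and MARCHF1 1.83 at 96 h, while LGMN is at -1.53.

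Genes of class II loading, processing and turnover were mixed. CD74, the invariant chain that occupies the groove until loading, was at 0.46 and 0.05 at 24 h, at 0.45 at 48 h and at 0.53 at 96 h, with a mean of 0.41 ± 0.13 (limma adjusted p = 0.0219). That call was lost on leaving out the 48 h array, the 96 h array or replicate 1 at 24 h (0.34 to 0.39, limma adjusted p from 0.0665 to 0.127). In the contrasts in which a dye bias cancels CD74 did not pass, at 0.34 for later minus earlier (limma adjusted p = 0.213) and 0.22 against the other experiments (limma adjusted p = 0.282). MARCHF1, a membrane ubiquitin ligase that sends class II from the surface to lysosomes, rose by 1.50 ± 0.11 (limma adjusted p = 6.76e-09). MARCHF1 was already called over 1 to 6 h, at 0.47 ± 0.09 (limma adjusted p = 0.00147), in the window in which HLA-DQA1 and HLA-DMB were below control. Among the lysosomal proteases, CTSB and CTSL rose by 0.62 and 0.47, and LGMN, the asparagine endopeptidase, fell by 1.09 ± 0.15 (limma adjusted p = 6.23e-05). LGMN had only 1 probe. In all, 4 of 8 measured genes of this list were called higher and 1 lower, with a median of 0.18. Of all genes tested, 14.1% were called higher and 13.7% lower, so the count of genes called lower was near that share. CTSS, the cathepsin that trims the invariant chain in B cells, was at -0.06, and IFI30, a lysosomal thiol reductase, at -0.04.

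Of 14 measured MHC class I presentation genes, 7 rose at 24 to 96 h of IL-10 and 0 fell, with a median of 0.38; of all genes tested in this window, 14.1% were called higher and 13.7% lower. PSMB9, an immunoproteasome subunit, rose by 1.45, NLRC5, the class I counterpart of CIITA, by 1.33, TAP1, a peptide transporter chain encoded within the MHC, by 1.33, and HLA-B by 1.29. The 7 genes that did not pass lay between -0.17 (CANX) and 0.21 (TAP2). Over 1 to 6 h, 5 of the 14 were already called higher, HLA-E, TAP1, TAP2, PSMB9 and NLRC5, where 6.12% of all genes were. The later minus earlier difference was called higher for 5 of the 14, where 7.96% of all genes were. TAP1, which had 1 probe, was not among these, at 0.48 (limma adjusted p = 0.0539). Among 13 regulators of B cells and plasma cells 4 rose and 3 fell (median 0.09). PRDM1, which represses CIITA during plasma cell differentiation, rose by 2.92 ± 0.14 (limma adjusted p = 8.44e-12), BCL6, the germinal centre repressor, rose by 0.69, POU2F2 rose by 0.49 and IRF8 fell by 0.45. The other genes called lower, named after their values were seen, were XBP1, a factor of plasma cell secretion, which fell by 0.44, and SPI1, which fell by 0.29. POU2AF1, also named afterwards, was the other gene called higher, and its later minus earlier difference was called higher too. PRDM1 and 7 of the class II genes were thus above control on the same 4 arrays. Over 1 to 6 h of IL-10, PRDM1, IRF4, BCL6 and POU2F2 were called higher, where 6.12% of all genes were. SPI1 and POU2AF1 were called lower there, where 8.4% of all genes were. PRDM1 was thus already called higher in the window in which HLA-DQA1 and HLA-DMB were called lower. Whether PRDM1 bears on the class II ratios was not tested.

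In the other experiments the calls among these pathway genes were as follows. Of the class II transcription list, NFYC fell by 0.29 with JAK inhibitor I (limma adjusted p = 0.0274; the median of its probes gave 0.09), and none was called in the other 4 experiments. CTSB rose with the super-repressor in OCI-Ly3 (0.35, limma adjusted p = 0.00138) and MARCHF1 rose with IL-6 (0.32 ± 0.09, limma adjusted p = 0.0344, above 0 on 6 of 7 arrays), a call lost with the run as a block (limma adjusted p = 0.153). Of the 14 class I genes, HLA-B and B2M rose with the super-repressor in OCI-Ly3 (0.28 and 0.25) and NLRC5 with IL-6 (0.23). Of all genes, 9.16% and 3.48% were called higher in these windows. Of the 13 regulators, 1 rose and 3 fell with the super-repressor in OCI-Ly3, where 9.16% of all genes were called higher and 4.87% lower. In OCI-Ly10, 1 regulator fell with the super-repressor, where 0.31% of all genes were called lower. With siRNA 1 fell (2.05% of all genes called lower), and with JAK inhibitor I 1 rose (1.09% called higher).

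Markers of cell types were read against the 14.1% of genes called higher and 13.7% called lower in the later IL-10 window. Of 7 measured myeloid and dendritic markers 3 rose, CD14 by 0.46, ITGAM by 0.39 and ITGAX by 0.61, and 2 fell, MRC1 by 0.64 and CD1C by 0.62. Of 11 T and NK cell markers 2 rose and 1 fell, shares near those of all genes, and of 4 erythroid and stromal markers none passed. Of 8 B cell markers CD72 rose by 0.85 and CD22 by 0.30, and CD79A fell by 0.59. Levels are not known here, so a summed level of these markers could not be given, and their part in the class II result was not tested.

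Genes whose pattern was most like that of the class II genes were ranked by Pearson correlation with the mean of the class II genes over the 40 arrays, among 3631 other genes with values on at least 36 arrays. The highest were FCGR2B, the inhibitory IgG receptor of B cells (0.90), HLA-B (0.89), the exonuclease gene ISG20 (0.89), the coactivator gene NCOA1 (0.89), ADAM12 (0.89) and the cyclin gene CCNG2 (0.88). The lowest were ADIRF (-0.85), the cyclin gene CCND2 (-0.82), MACROD2 (-0.81) and the chemokine gene CCL22 (-0.80). CIITA was at 0.80 and ranked 28, RFX5 at 0.64, RFXANK at 0.49, CD74 at 0.36 and RFXAP at -0.02. These values rest on the IL-10 arrays, which share a line, a treatment and runs: over the other 30 arrays FCGR2B was at 0.25, HLA-B at 0.22, ISG20 at 0.03 and CIITA at 0.15, and 0 of the 6 highest genes stayed among the 6 highest. By Spearman correlation 0 of the 6 stayed as well, and with scaled arrays 6 did. The values are a description and carry no test.

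The members were alike in the same sense. Over 40 arrays the 21 pairs among the 7 genes other than HLA-DOB correlated at 0.71 to 0.95 (median 0.87), highest for HLA-DQA1 with HLA-DQB1. Without the IL-10 arrays the same pairs ran from -0.44 (HLA-DMB with HLA-DQA1) to 0.59 (HLA-DQB1 with HLA-DRB1), with a median of 0.16 over 30 arrays.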

How the data were processed

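The authors hybridised treated RNA (Cy5) with control RNA (Cy3), from Trizol extracts primed with oligo-dT per the labels' protocols, and deposited 1 log ratio per probe and array, taken here as log2. How the spots were background-corrected and normalized is not given in the sources used here. Array medians as deposited lay between -0.031 and 0.011, and each array was centred on its median. Of 15246 probes, 10169 had 1 gene symbol, 4 several and 5073 none listed; 12.6% of values were blank. Probes of a gene were averaged.

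One model over all 40 arrays, with a mean per experiment and time point, was fitted with limma 3.58.1 (R 4.3.3) and tested on simulated data. The simulated arrays varied independently, while the real ones had a consensus correlation of 0.262 within a run. The simulation therefore cannot show how p-values behave under that dependence. Genes entered a test with values on at least 75% of the arrays of a window and at each of its times; p-values were Benjamini-Hochberg adjusted over all genes tested. The number of arrays limits precision. A ratio against 0 leaves out the control RNA's own spread.

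All members were named. Pathway genes, markers and the 6 most and 4 least like genes came from lists and a rule; 1 of the lists is not reported here. Members and lists were chosen with earlier results of these data known. Same-numbered arrays deviated together in IL-10 (correlations of replicate differences between times 0.393 to 0.59) and IL-6 (0.185 to 0.229), so replicate blocks are given beside those results. Alternatives covered centring, scaling, probe summary, missing values, blocks, arrays in the fit and each array left out.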

Additional observations from a re-analysis of the deposited data

Results flagged for a closer look

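Effects at different times differed for 7 class II genes under IL-10 by the test of the difference itself. The mean of 24 to 96 h minus that of 1 to 6 h was 1.9909 for HLA-DQA1, 1.9149 for HLA-DQB1, 1.4608 for HLA-DMB, 1.4050 for HLA-DRA, 1.2045 for HLA-DPA1, 1.0170 for HLA-DRB1 and 0.9312 for HLA-DPB1 on the log2 scale. In HLA-DQA1 and HLA-DMB both windows passed the test with opposite signs.

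The 24 h ratios of IL-10 in OCI-Ly3 minus IL-6 in OCI-Ly10 passed the test at 1.0613 for HLA-DRA, 0.9034 for HLA-DQB1 and 0.6964 for HLA-DPA1. Line and cytokine cannot be told apart there, and IL-6 had 1 array, whose spread was taken from the other groups. No group had the 4 arrays that a check for single deviating samples needs.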

How the results depend on the processing

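The 7 class II calls of the later IL-10 window, and those of its difference from the earlier window, kept direction and call in every alternative run and with any 1 array left out, and so did those against the other experiments. Counts over all genes moved more. With arrays scaled to equal spread, the genes called became 790 at 24 to 96 h of IL-10 (1238 as reported), 295 for late minus early (591), 533 against the other experiments (872), 455 with IL-6 (150), 238 with the super-repressor in OCI-Ly10 (24; class II 2), 2 between the lines (0), 83 for siRNA (144; class II 0) and 232 for JAK inhibitor I (146; class II 1). With the run as a random block they became 267 at 1 to 6 h of IL-10 (643), 38 with IL-6, 120 with the super-repressor in OCI-Ly3 (616; class II 1), 5 in OCI-Ly10, 48 for siRNA (class II 0) and 78 for JAK inhibitor I. With the replicate block they became 975 at 1 to 6 h, 223 for IL-10 minus IL-6 (144), 314 with IL-6, 1105 with the super-repressor in OCI-Ly3, 39 in OCI-Ly10, 417 for siRNA and 259 for JAK inhibitor I (class II 1); apart from those printed, HLA-DPA1 with the super-repressor in OCI-Ly3 (adjusted p = 0.0477) and HLA-DMB with JAK inhibitor I (0.0421) were the class II calls it changed. The numbers did not pair the super-repressor arrays (-0.368 to 0.336), and siRNA and JAK inhibitor I gave 1 correlation each (0.254 and 0.217). With only an experiment's own arrays, fewer samples setting the spread, counts were 800, 220 (class II 0), 227 and 69 for the 4 IL-10 tests, 71 with IL-6, 368 (class II 1) with the super-repressor in OCI-Ly3, 0 (class II 0) for siRNA and 12 for JAK inhibitor I. At 24 h alone 431 and at 6 h alone 300 genes were called. Probes with values on at least 36 arrays, called well-filled here, gave class II 1 for the super-repressor in OCI-Ly10, and 222 genes, class II 1, for JAK inhibitor I; the median of the probes gave class II 0 for siRNA, and values on every array gave class II 1 for JAK inhibitor I.

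Leaving out 1 array gave 698 to 1149 genes at 24 to 96 h, 346 to 614 at 1 to 6 h, 306 to 600 for late minus early, 535 to 925 against the other experiments, 96 to 104 for IL-10 minus IL-6 (class II 2 to 3), 93 to 147 with IL-6, 269 to 957 with the super-repressor in OCI-Ly3 (class II 1 to 2), 1 to 17 in OCI-Ly10, 21 to 106 for siRNA (class II 0) and 44 to 160 for JAK inhibitor I. Uncalled means whose sign turned ran from -0.0489 to 0.0047 (HLA-DPA1) and -0.0641 to 0.0540 (HLA-DPB1) with IL-6, from -0.0171 to 0.0896 (HLA-DQB1) and -0.0008 to 0.0602 (HLA-DRB1) with the super-repressor in OCI-Ly10, from -0.0102 to 0.0785 (HLA-DMB) and -0.0575 to 0.0375 (HLA-DPA1) between the lines, from -0.0182 to 0.0743 (HLA-DRA) with siRNA, and from -0.0150 to 0.0959 (HLA-DQB1) and -0.0019 to 0.0740 (HLA-DRB1) with JAK inhibitor I.

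The sign turned, with no call in either fit except as named, for HLA-DRA at 6 h alone (-0.1193); between the lines for HLA-DPA1 without centring (-0.0042), scaled (-0.0706) and with the run (-0.0025), HLA-DMB scaled (-0.0657) and HLA-DQA1 with well-filled probes (0.0390); for siRNA in HLA-DRA by probe medians (-0.0021) and HLA-DPB1 with well-filled probes (0.0510); and for JAK inhibitor I in HLA-DRB1 by medians (-0.0018) and well-filled probes (-0.0962), HLA-DPB1 with well-filled probes (0.0104) and NFYC by medians (0.0907), called as reported. The causes were not tested. A fit of the OCI-Ly10 super-repressor arrays alone, and IL-10 minus IL-6 without the single IL-6 array, could not be fitted.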
